A study of Canis lupus familiaris with 5 samples.

Results

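CL-1 is a canine lymphoid cell line that the labels give as a T-cell line derived from a primitive a/b T-cell leukemia. It was taken by its title, as 1 of the 5 samples of the series, and set against the other 4 lines. The study characterized widely used canine lymphoid lines by surface phenotype, genome and transcriptome, of which the transcriptome was analysed here. The other lines were 17-71, labelled as a B-cell line from a B-lymphoid malignancy, GL-1, labelled as a B-cell line from a B-cell leukemia, CLGL-90, an LGL T-cell line from a large granular lymphocyte leukemia, and CLL-1390, a T-cell line from a primitive T-cell leukemia. All 5 lines were untreated and grown in RPMI with 10% FBS, and total RNA with a RIN above 9 was hybridised to 1 Affymetrix canine array per line. A line is a single tumour in culture, so a value belongs to that line and not to a class of leukemia. With 1 array per line there was no replicate error, and no p-value could be given: a difference between CL-1 and another line holds the culture, the RNA preparation and the array as well as the line.

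T cells recognise peptides through a receptor whose antigen-binding chains signal through the CD3 chains and the zeta chain (CD247). The kinase LCK, the adaptors LAT and LCP2 and the exchange factor RASGRP1 then pass the signal to calcium and RAS pathways, while CD28 and CTLA4 raise or damp it. Chemokine receptors such as CCR4 and CCR8 direct T cells to tissues and are known from regulatory and type 2 helper T cells in skin. Homeobox factors, bone morphogenetic proteins and fibronectin are better known from the patterning of embryonic and connective tissues than from lymphocytes.

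A probe set is a group of array probes for one transcript, and its value is a log2 intensity, so a gap of 1 is a 2-fold difference in intensity. Genes were represented by the probe set of highest mean and called measured when it reached log2 7 on at least 1 array, which 10533 of 15115 genes did. Array medians lay between 6.87 in CL-1 and 6.99 in CLGL-90. Affymetrix also places probe sets for foreign transcripts on the array, and these non-dog controls had medians from 4.07 to 4.29 and reached 6.39 in CL-1 and 6.76 in CLGL-90. Values under about 6.76 were therefore not told from background here, and the size of a gap that starts there depends on that background. A gene was said to stand apart when CL-1 was at least log2 2 above the highest or below the lowest of the other 4 lines.

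The T-cell label was set against its defining markers first. Of 12 T-cell markers on the array, 7 lay above the highest non-dog control of the CL-1 array (6.39) and 6 above that of all arrays (6.76), with CD8A between them at 6.49. Of the 12, 1 (CD247) was highest in CL-1 and 6 were lowest there. The margin was small for CD3E (7.81 against at least 7.91), LAT (9.02 against at least 9.37), CD4 and CD5. CL-1 also had the lowest array median, so the count of 6 alone says little. CD3D, a chain of the receptor complex, stood at 5.44 in CL-1, at 5.14 in 17-71, and at 9.78 in GL-1, 13.51 in CLGL-90 and 10.89 in CLL-1390. CD3G, its partner chain, was likewise at background in CL-1 (5.34) and 17-71 (5.75), against 10.01, 12.69 and 8.86 in GL-1, CLGL-90 and CLL-1390. CD3D and CD3G thus went against the T-cell label of CL-1 and against the B-cell label of GL-1. CD3E, another chain of the complex, did not separate these 2 lines. It read 7.81 in CL-1, 7.91 in GL-1, 8.13 in 17-71, 8.48 in CLL-1390 and 10.24 in CLGL-90. CD247, the zeta chain, read 11.16 in CL-1 and 10.64 in CLGL-90, and 5.68 to 6.58 in the other 3 lines. LCK was intermediate, at 8.88 in CL-1 against 5.58 in 17-71 and 10.65 to 11.78 in the other 3. CD4 (8.10 to 8.43 over the 5 lines) and CD5 (7.52 to 8.04) hardly varied between any lines, so their probe sets separate none of them. In RNA of a whole culture, fewer expressing cells and less RNA per cell cannot be told apart. Averaged over the 12 markers, CL-1 stood at 7.13, next to 17-71 at 6.97 and below GL-1 at 7.93, CLL-1390 at 8.26 and CLGL-90 at 10.87.

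Markers of other cells did not mark CL-1 either. None of the 6 B-cell, 9 myeloid, 6 natural killer, 8 fibroblast, 5 endothelial, 4 epithelial and 3 erythroid or megakaryocyte markers on the array was highest in CL-1, and CL-1 held the lowest value of 4, 4, 4, 5, 3, 3 and 3 of them. Many of these were lowest by little, such as COL1A1 (5.15 against at least 5.44) and KRT8 (2.98 against at least 3.02). The CL-1 array also had the lowest median (6.87) and the lowest non-dog median (4.07). The counts of lowest values are therefore not read as a trait of CL-1. Among the 5 melanocyte and neural crest markers MITF alone was highest, at 12.39 in CL-1 against 5.46 to 10.19, while TYR and SOX10 stayed at background in every line. COL1A1 (5.15 in CL-1) and DCN (5.81), defining genes of fibroblasts, stayed below the highest value of the non-dog controls in all 5 lines. Markers went both with and against the labels of the comparison lines. LYZ, lysozyme of myeloid cells, stood at 12.39 in 17-71 and 12.01 in GL-1, both labelled as B-cell lines, against 3.28 in CL-1. MS4A1, which encodes CD20, lay between 5.72 and 6.79 in all lines, near background. CD79A (7.83 against 5.15 to 5.80) and EBF1 (7.71 against 6.23 to 6.41), both B-cell markers, were highest in GL-1 and went with its label. The B-cell markers CD79B, PAX5 and BLK hardly varied between lines. Since the markers were mixed, the lines are referred to by name rather than by lineage.

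CL-1 held more genes apart from all others than any other line did. It had 141 genes at least log2 2 above every other line, 1.34% of the 10533 measured genes, and 56 genes at least log2 2 below, 0.532%. The same counts were 112 (1.06%) and 35 (0.332%) in 17-71, 50 (0.475%) and 21 (0.199%) in GL-1, 99 (0.94%) and 24 (0.228%) in CLGL-90, and 60 (0.57%) and 36 (0.342%) in CLL-1390. In CL-1, 61 of the genes above and 26 of those below were apart by at least log2 3, and 29 and 14 by at least 4. The low side was at background in 76 of the 141 genes (under 6.76 in the other lines) and in 31 of the 56 (under 6.39 in CL-1). Raising every value to the highest non-dog control kept 112 of the 141 and 36 of the 56. Leaving out the comparison with CLGL-90 or CLL-1390 raised the 56 to 96 and 86, since fewer lines then had to be cleared. The CL-1 shares of 1.34% above and 0.532% below are to be set beside each count of list members given further on. A gene high in CL-1 alone could reach log2 7 by that value alone. Such a gene is measured through its own gap, in each list and in the 1.34%, so counts of genes above are a description. With no filter the 141 became 145, and with a filter of log2 5 on at least 2 arrays 126.

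**Figure D1:**
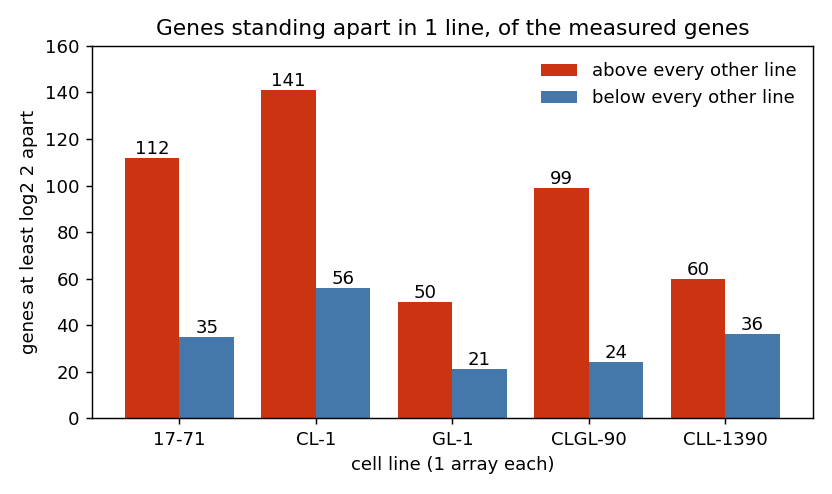
Bars give the number of measured genes (of 10533) that stood at least log2 2 above (red) or below (blue) all 4 other lines, for each of the 5 lines, 1 array each. CL-1 has the tallest bar in both directions, with 141 and 56 genes.

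Genes just past the threshold included DGKH (a gap of 2.03, or 1.02 from the highest non-dog control), MFHAS1 (2.02) and CCNE1 (2.001) above and FUT8 (2.03) and RGS2 (2.01) below. Just short of it were FBXL14 (1.998) and ACSL4 (1.994) above, and EVI2B (1.99) and TNFRSF1A (1.95) below. These edge genes were picked by their gaps alone.

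Chemokine receptors came first by role. CCR8, a receptor of regulatory and type 2 T cells, stood at 13.34 in CL-1, against 6.60 in 17-71, 6.62 in GL-1, 6.88 in CLGL-90 and 6.70 in CLL-1390. The other 4 lines agreed to within 0.3 and CL-1 lay 6.46 above the nearest of them. CCR4, a receptor found on many of the same cells, was at 8.61 in CL-1 and at 5.72 to 6.01 elsewhere, a gap of 2.59, or 1.85 from the highest non-dog control, under the threshold. CXCR5, the follicular homing receptor, was at 9.81 against 7.36 to 7.76 (gap 2.05), and CCR7, the lymph node homing receptor, at 9.42 against 7.56 in 17-71 and 5.67 to 6.64 in the rest (gap 1.85). These genes were high in the same line, but the class was not: of 15 measured chemokine receptors 3 stood above every other line (2 from the highest non-dog control) and 0 below, against 1.34% and 0.532% of all measured genes, and the median member lay 0.21 under the others' median. CCR9, the gut and thymus receptor, was at background in CL-1 (6.50) and barely above it in 17-71 (6.79) and CLGL-90 (6.93), and stood at 11.50 and 11.16 in GL-1 and CLL-1390. Of 17 measured regulatory and type 2 genes, only CCR4 and CCR8 stood apart. GATA3, the type 2 master factor, was lowest in CL-1 at 7.21 against 8.13 to 9.40 in the other lines.

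Among the signalling genes that act after the receptor, LCP2 and SLA were far lower in CL-1 than in any other line and RASGRP1 was far higher. LCP2, the adaptor SLP-76, stood at 3.99 in CL-1 and at 10.08 in 17-71, 10.23 in GL-1, 10.54 in CLGL-90 and 10.70 in CLL-1390. SLA, an adaptor that lowers receptor levels, was at 5.55 against 12.98, 11.59, 11.47 and 12.61 in the same order. Both were at background in CL-1 and abundant in the 4 others, B-labelled lines included, with gaps of 6.09 and 5.92. All 3 other measured probe sets of LCP2 were low in CL-1 too, by 3.03 to 4.19. RASGRP1, the RAS exchange factor that acts after them in T cells, went the other way: 12.77 in CL-1 against 7.56, 7.48, 8.28 and 7.15, a gap of 4.49. SH2D1A, the adaptor SAP of SLAM receptors, was at 9.80 in CL-1 and 10.98 in CLGL-90 and 3.94 to 4.24 in the others. Of 26 measured genes of the receptor complex and its proximal signalling, 1 stood above every other line and 2 below. Over all measured genes the shares were 1.34% and 0.532%. In this list 7 lay above the others' median and the list's median was -0.62, against -0.005 over all measured genes.

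Of 20 measured T-cell surface receptors 5 lay above the others' median in CL-1, and few stood apart: 2 above every other line and 1 below. Over all measured genes the shares apart were 1.34% and 0.532%. CD48, a SLAM family ligand, stood at 5.10 in CL-1 and 6.27 in CLL-1390, against 11.38 to 13.17 in the other 3. CD7 (5.38) and THY1 (5.61) were at background in CL-1 as in 17-71 (5.96 and 5.93), against at least 8.92 and 9.28 in GL-1, CLGL-90 and CLL-1390. ITGB2, the beta chain of leukocyte integrins such as LFA-1, was at 6.42 against 10.41, 10.88, 10.17 and 10.42, a gap of 3.75 that its other measured probe set showed at 1.64. CL-1 was thus the one line in which ITGB2 lay near background. CD226, an activating receptor of T and natural killer cells, stood at 9.54 against 6.17 to 6.39 (gap 3.15) and CD1C, a lipid-presenting molecule, at 8.03 against 5.82 to 5.99 (gap 2.04, or 1.27 from the highest non-dog control, under the threshold). The list median was -0.57, and -0.29 with values raised to that control. PTPRC, the pan-leukocyte antigen CD45, was chosen after its values were seen: it was highest in CL-1, at 11.11 against 8.88 to 10.79.

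Costimulatory receptors set CL-1 and CLGL-90 apart from the other 3 lines. CD28 read 11.06 in CL-1 and 10.69 in CLGL-90, against 8.31 in GL-1, 6.41 in 17-71 and 6.32 in CLL-1390. CTLA4, its inhibitory relative, was at 10.40 in CL-1 and higher, at 12.20, in CLGL-90, and at 4.91 to 5.44 in the rest. ICOS was weaker, at 7.50 and 7.29 against 4.59 to 5.13. The gaps between CL-1 and CLGL-90 (0.37 for CD28 and 0.22 for ICOS) were small, and with 1 array each their order was not tested. CD70, the ligand of CD27, was at 12.13 in CL-1 and 11.56 in CLGL-90, then 9.91, 7.78 and 5.66 in 17-71, GL-1 and CLL-1390. CD86, a ligand of CD28, was low in CL-1 (6.92) and CLL-1390 (6.75) and 10.48 to 11.12 in the others. None of the 18 measured costimulation genes stood at least 2 above or below every other line, against 1.34% and 0.532% of all measured genes. CTLA4 and CD28 thus did not mark CL-1 alone.

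**Figure D2:**
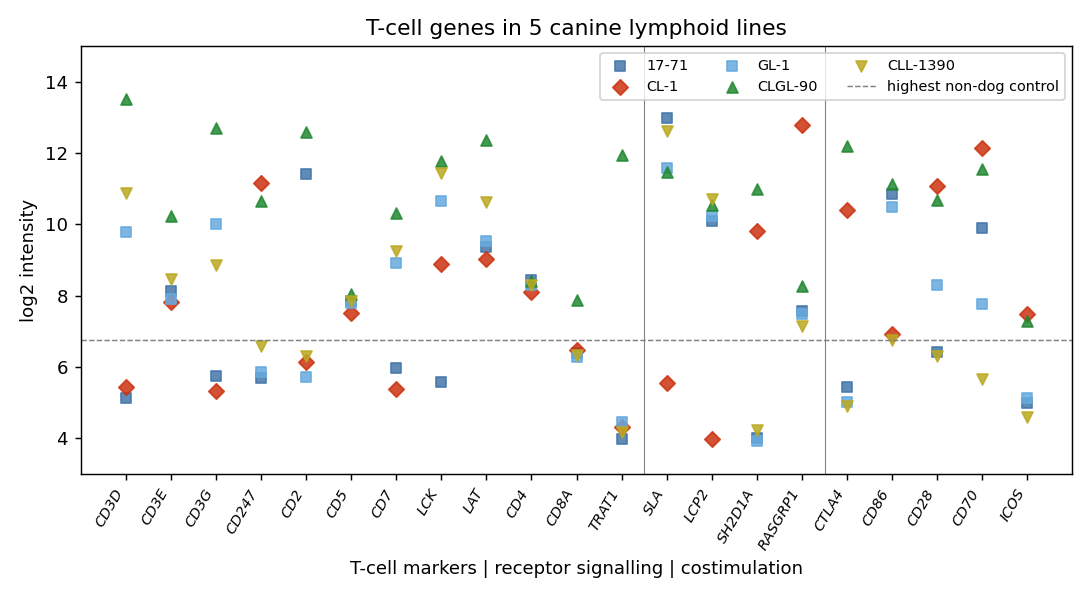
Each column is a gene and each point the log2 intensity of 1 line, with T-cell markers on the left, receptor signalling genes in the middle and costimulation genes on the right; the dashed line is the highest non-dog control (6.76). The red diamonds of CL-1 lie under the line for CD3D, CD3G, SLA and LCP2 and are the highest points for CD247, RASGRP1, CD28 and CD70.

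Among cytokine receptors, IL2RG alone stood apart in CL-1, and that gap started at background. IL2RG, the gamma chain shared by the receptors of IL-2, IL-7 and other cytokines, stood at 5.59 in CL-1 and at 9.21, 8.09, 8.80 and 8.59 in 17-71, GL-1, CLGL-90 and CLL-1390, a gap of 2.50 by its only measured probe set, or 1.33 from the highest non-dog control. IL2RB, the partner chain for IL-2, was at 9.22 in CL-1 and 10.86 in CLGL-90, against 5.89 to 7.02. IL7R was at background (5.96). Of 36 measured genes of cytokine receptors and JAK-STAT signalling 0 stood above every other line and 1 below, against 1.34% and 0.532% of all measured genes. In this list 9 lay above the others' median, and the median was -0.38. TOX, a factor of thymic T-cell development, stood at 4.13 against 7.31 in 17-71, 10.63 in GL-1, 7.92 in CLGL-90 and 11.72 in CLL-1390, and BCL11A, a factor of early lymphoid and B cells, at 11.05 against 6.66 to 8.82. They were the only 2 of 20 measured lymphoid transcription factors to stand apart. The TOX gap of 3.18 was 0.55 from the highest non-dog control, so that only BCL11A stood apart from there.

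Homeobox and patterning genes held the largest gap above. MSX2, a homeobox factor of bone, teeth and skin appendages, stood at 12.74 in CL-1 and at 5.58 in 17-71, 5.39 in GL-1, 5.65 in CLGL-90 and 5.66 in CLL-1390. The 4 others agreed to within 0.3 at background, and the gap was 7.09, or at least 5.98 when counted from the highest non-dog control. TFAP2B, a factor of neural crest derivatives, was at 10.90 against 4.74 to 5.08 (gap 5.83), and HOXA5 at 10.22 against 6.91 to 7.88 (gap 2.34). Of 23 measured genes in the list 3 stood above every other line and 0 below, against 1.34% and 0.532% of all measured genes. The array held 70 genes of the list. MSX2 and TFAP2B reached log2 7 in CL-1 only, so the value that sets them apart also made them measured. The count and the list median rest in part on that filter. MEIS2 was high in CL-1 (9.36) but equally in CLGL-90 (9.37) and in 17-71 (8.50), and NR2F2 was at 8.47 against 7.27 in 17-71 and 4.16 to 4.61 in the rest. The list median was 0.41 above the others', against -0.005 over all measured genes.

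A ligand, a receptor and a mediator of bone morphogenetic protein signalling were high in CL-1; MSX2 is known from other tissues as a target of this pathway. BMP2, the ligand, stood at 11.12 in CL-1 against 5.28, 4.89, 4.92 and 5.24 in 17-71, GL-1, CLGL-90 and CLL-1390, a gap of 5.84. ACVR1, a type I receptor, was at 10.13 against 7.11 to 7.55 in 3 lines and 4.27 in CLL-1390 (gap 2.58). SMAD9, a receptor-activated mediator, was at 10.44 against 5.48 to 6.32 (gap 4.11). SKIL, a repressor of SMAD signalling, was at 8.20 against 4.25 to 5.57 (gap 2.62), and BAMBI, a pseudoreceptor that damps it, at 8.60 against 7.72 in 17-71 and 5.54 to 5.82 in the rest. BMP2, ACVR1, SMAD9 and SKIL stood above every other line, 4 of 32 measured in the pathway, and 0 stood below, against 1.34% and 0.532% of all measured genes. From the highest non-dog control the SKIL gap was 1.44, which leaves 3. The rest was not high: 14 of the 32 lay above the others' median, and the list median was -0.19. ID1, a usual target, was at 7.25 in CL-1 and higher in 17-71 (8.41), and ID3 (6.94 to 7.45 over the lines) hardly varied. Wnt ligands WNT5B (8.58 against 4.16 to 4.36) and WNT10B (7.80 against 4.96 to 5.06) stood apart as well, 2 of 26 measured genes, with a list median of -0.16. From the highest non-dog control their gaps of 4.22 and 2.75 were 1.83 and 1.04, both under the threshold.

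Of the matrix genes, SDC2 and FN1 stood above every other line and TIMP1 below. SDC2, the cell-surface proteoglycan syndecan 2, stood at 14.22 in CL-1 against 7.41, 7.22, 7.46 and 7.63 in 17-71, GL-1, CLGL-90 and CLL-1390, and its 2 other probe sets gave gaps of 6.17 and 7.29. FN1, fibronectin, was at 14.01 in CL-1 and at 11 in CLL-1390 (gap 3.01), then 7.24 in GL-1, 5.34 in 17-71 and 4.66 in CLGL-90. FN1 was thus shared with CLL-1390, at a lower level there, while SDC2 was not. TIMP1, an inhibitor of matrix proteases, stood at 6.13, under the highest non-dog control, against 11.64, 10.69, 12.13 and 11.01 (gap 4.55 below). ITGA6, a laminin receptor chain, was at 5.64 against at least 8.48, with a gap of 2.84 that only 1 of its 3 other probe sets showed at 1 or more and that was 1.72 from the highest non-dog control. ALCAM, an adhesion molecule that binds CD6, was at 7.85 against 3.84 to 4.71 (gap 3.14, or 1.09 from that control). In the matrix list 2 of 36 measured genes stood above and 1 below, and in the adhesion list 1 of 36 and 2, with list medians of -0.29 and -0.31. Over all measured genes the shares were 1.34% above and 0.532% below. Collagens and other fibroblast markers were not part of this, as given above.

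Some NF-kB regulators were higher in CL-1 than in every other line. NFKBIZ, a nuclear IkB protein, stood at 11.96 in CL-1 against 7.01, 7.02, 7.55 and 6.96, a gap of 4.41 by its single probe set. MALT1, the protease that links antigen receptors to NF-kB, was at 10.98 against 8.05 to 8.31 (gap 2.67), and LTA, lymphotoxin alpha, at 9.00 against 6.45 to 6.81 (gap 2.19). BCL3, another nuclear IkB protein, was at 9.04 with 17-71 next at 7.77. Other members of the list were low: BCL2A1 was at 5.92, like CLL-1390 (6.28) and unlike 17-71, GL-1 and CLGL-90 (11.34 to 13.85), and BIRC3 was at 4.35, next to CLGL-90 (4.42). Of 33 measured genes 3 stood above every other line and 0 below, against 1.34% and 0.532% of all measured genes. In this list 19 lay above the others' median, and the median was 0.15. CYLD, which switches NF-kB signalling off, was lowest in CL-1, at 5.48 against 7.57 in GL-1, 7.76 in CLL-1390, 7.87 in CLGL-90 and 9.86 in 17-71; it was chosen after its values were seen, from the chromosome 2 stretch described further on.

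**Figure D3:**
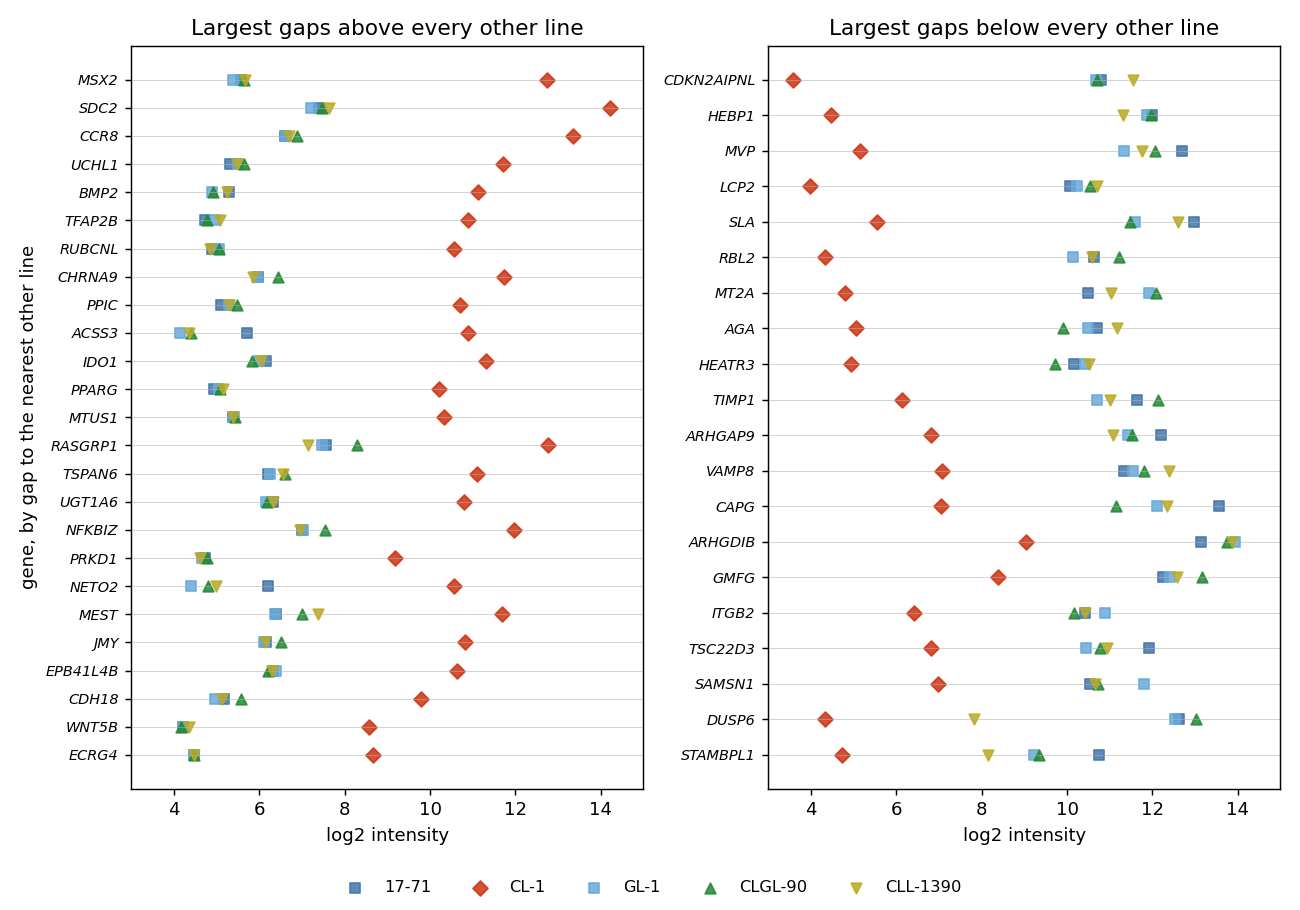
Each row is a gene and each point the log2 intensity of 1 line; the left panel holds the 25 genes with the largest gaps above every other line and the right panel the 20 with the largest gaps below, sorted by gap. In the left panel the other 4 lines mostly cluster together and CL-1 (red diamonds) lies at least 4.19 to their right; in the right panel CL-1 lies at least 3.41 to their left.

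Other genes with large gaps above came from several tissues. UCHL1, a neuronal deubiquitinase, stood at 11.71 in CL-1 against 5.31 to 5.65, and its second probe set gave a gap of 8.63. CHRNA9, a nicotinic acetylcholine receptor subunit, was at 11.73 against 5.85 to 6.44. Among 31 measured neural genes these 2 stood above every other line and none stood below, against 1.34% and 0.532% of all measured genes. IDO1, the tryptophan-degrading enzyme that restrains T cells, was at 11.31 against 5.83 to 6.16, and 2 further probe sets gave gaps of 7.17 and 7.44. PPARG, the nuclear receptor of fat cells and alternatively activated macrophages, was at 10.21 against 4.95 to 5.16. RUBCNL, an autophagy factor, was at 10.56 against 4.84 to 5.05, and PPIC, a secretory pathway cyclophilin, at 10.71 against 5.10 to 5.49. All 4 comparison lines were at background for these last genes. ACSS3, a mitochondrial acyl-CoA synthetase (10.90; gap 5.18), UGT1A6, a glucuronosyltransferase (10.79; gap 4.46), PRKD1, protein kinase D1 (9.18; gap 4.40), and MEST, an imprinted gene (11.68; gap 4.31), also stood apart. So did NETO2, an auxiliary subunit of glutamate receptors (10.56; gap 4.36), JMY, an actin nucleator (10.81; gap 4.28), TSPAN6, a tetraspanin (11.09; gap 4.47), CDH18, a cadherin (9.79; gap 4.22), EPB41L4B (10.63; gap 4.24), and ECRG4 (8.67; gap 4.19). EPB41L4B fell short at 1.80 when its probe sets were averaged, and ECRG4 at 1.91 from the highest non-dog control. MITF, the melanocyte and mast cell factor, was at 12.39 with 17-71 next at 10.19 (gap 2.20).

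Genes far below the other lines included several that were abundant in all 4 of them. CDKN2AIPNL, a small protein that binds an RNA exonuclease, stood at 3.59 in CL-1 and at 10.79, 10.68, 10.70 and 11.54 in 17-71, GL-1, CLGL-90 and CLL-1390. HEBP1, a heme-binding protein, was at 4.47 against 11.98, 11.87, 11.97 and 11.32. The other measured probe set of each gave a smaller gap, of 2.13 and 3.94. MVP, the major vault protein, was at 5.16 against 12.70, 11.34, 12.06 and 11.76, a gap of 6.18; its 4 other measured probe sets gave gaps of only 0.90 to 1.36, and averaging all of them left 2.20. AGA, a lysosomal amidase, was at 5.05 against 9.90 to 11.18, and its second probe set gave 3.87. In the vault and detoxification list MVP alone, of 36 measured genes, stood apart. Over all measured genes 1.34% stood above and 0.532% below.

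Other large gaps below, taken by size and not as a list, included genes of the cytoskeleton, of vesicle fusion and of signalling. ARHGDIB stood at 9.05 in CL-1 against 13.13, 13.94, 13.74 and 13.87 in 17-71, GL-1, CLGL-90 and CLL-1390, a gap of 4.08 that its second probe set gave as 4.14. GMFG, an actin debranching factor of blood cells, was at 8.38 against 12.25, 12.40, 13.15 and 12.57. Both were still above background in CL-1, unlike LCP2 and SLA. ARHGAP9 was at 6.82 against 11.08 to 12.19, CAPG, an actin-capping protein, at 7.05 against 11.14 to 13.55, and VAMP8, a vesicle fusion protein, at 7.07 against 11.33 to 12.38. The other measured probe sets of VAMP8 disagreed, with gaps of 0.65 and 6.11. TSC22D3, a glucocorticoid-induced factor, stood at 6.81 against 10.45 to 11.92, and SAMSN1, an adaptor of blood cells, at 6.97 against 10.53 to 11.80. DUSP6, the phosphatase that damps ERK, was at 4.33 against 7.81 in CLL-1390 and at least 12.53 in the other 3, and its gap of 3.48 was 1.05 from the highest non-dog control.

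MHC class II genes were shared with 17-71. DLA-DRA, the alpha chain of the DR molecule, stood at 13.00 in CL-1 and 14.05 in 17-71, and at 6.47 to 6.51 in the other 3 lines. DLA-DQA1 (13.41 and 13.23), DLA-DQB1 (12.43 and 12.77), HLA-DRB1 (12.72 and 13.69) and CD74, the invariant chain (12.67 and 13.74), gave the same pattern, with the other lines at 7.62 or below. The 5 chains separated the 2 lines from the remaining 3 by 5.05 to 7.39. CIITA, the coactivator that drives these genes, did not follow by its probe set, at 9.20 in CL-1 and 9.39 to 9.76 elsewhere. Of 19 measured class II genes 0 stood apart in CL-1 alone and 13 lay above the others' median, with a median of 1.07. In class I, DLA-64 was at 8.70 in CL-1 against 10.08 or more in the others, and 0 of 18 measured genes stood apart. Over all measured genes 1.34% stood above and 0.532% below.

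Counting genes that CL-1 shared with exactly 1 line, CL-1 and that line at least log2 2 from the other 3, gave the largest number with CLGL-90: 27 genes above (0.256% of measured genes) and 19 below (0.18%). With 17-71 there were 18 above (0.171%) and 18 below (0.171%), with CLL-1390 11 above (0.104%) and 21 below (0.199%), and with GL-1 9 above (0.0854%) and 7 below (0.0665%). CLGL-90 shared the high levels of CADM1, an adhesion molecule (10.38 in CL-1 and 10.77 in CLGL-90, against at most 4.80), SH2D1A, CTLA4, CD247 and NEFL, a neurofilament chain (10.78 and 11.24, against at most 6.00). It also shared the low levels of BTK (3.93 and 4.68, against at least 11.23) and SYK (5.43 and 6.30, against at least 9.33), kinases of B-cell and myeloid receptors. CLL-1390 shared GNAI1, a G protein subunit (10.28 and 11.36, against at most 5.54), and GUCY1B1, a guanylate cyclase subunit (11.92 and 13.86, against at most 7.40). GL-1 shared TSPAN12, a tetraspanin (10.37 and 11.25, against at most 6.76), and ARG2, an arginase (12.84 and 11.37, against at most 8.17). With 17-71, CL-1 shared low GSPT2, a translation termination factor (5.13 and 5.69, against at least 10.77), and SKAP1, an adaptor of T-cell adhesion (6.26 and 5.74, against at least 9.59). So CL-1 had no single close relative among the 4 lines.

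Pairwise correlations over the measured genes, given as a description, placed CL-1 last. Its Pearson r was 0.828 with GL-1, 0.818 with 17-71, 0.816 with CLGL-90 and 0.816 with CLL-1390, a mean of 0.82, against means of 0.84 to 0.859 for the other lines. All values share the arrays, the normalization and probe-specific brightness. The 2 lines labelled T with CL-1 were not nearer to it than the B-labelled ones.

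Gene by gene, 100 of the 197 genes apart in CL-1 had at least 1 other measured probe set. In 84 of them (84.0%) every other measured probe set was apart from all 4 lines in the same direction by at least log2 1. In 13 some were, and in 3 (HAUS6, ITSN1 and PFKFB3) none was. The share was 87.9% of 66 genes above and 76.5% of 34 genes below. Probe sets that stayed dim on every array were not measured and did not count. For a gene above, the array that made a probe set measured could be CL-1 itself. A probe set that missed the high signal could thus drop out, and SVIL had 4 dim ones beside 1 measured. The filter can therefore raise the 87.9%, which is not compared with the 76.5%. MSX2, SDC2, UCHL1, BMP2, IDO1, LCP2, SLA and HEATR3 were among those in which all measured probe sets agreed. CCR8, TFAP2B, NFKBIZ, PPARG, MT2A and TIMP1 rest on 1 measured probe set. Counting probe sets instead of genes, 349 of 25194 measured ones stood above every other line (1.39%) and 126 below (0.5%). Of 6344 measured probe sets without a gene name, 82 stood above (1.29%) and 42 below (0.662%), shares near those of all probe sets.

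The position of the genes was looked at next, with order taken from the RefSeq annotation of assembly UU_Cfam_GSD_1.0, in which 9958 measured genes were placed. Among any 25 consecutive measured genes, at most 8 stood below every other line in CL-1, all on chromosome 2: MT1E, MT2A, RBL2, CHD9, CYLD, BRD7, TENT4B and HEATR3. The highest count in such a window was 4 for genes above in CL-1, and 2 to 4 for the other 4 lines in either direction. Of the 53 placed genes below in CL-1, 8 thus lay in 1 neighbourhood. With values raised to the highest non-dog control 5 of them still stood below (MT2A, RBL2, BRD7, TENT4B and HEATR3), while the gaps of MT1E, CHD9 and CYLD were 0.32, 0.17 and 0.81. The genes named here as neighbours were chosen after their values were seen.

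In the chromosome 2 stretch, RBL2, the retinoblastoma relative p130 that holds cells out of cycle, stood at 4.33 in CL-1 and at 10.64, 10.15, 11.22 and 10.59 in 17-71, GL-1, CLGL-90 and CLL-1390. HEATR3, an importer of a ribosomal protein, was at 4.94 against 10.17, 10.43, 9.72 and 10.51, with 3 other probe sets low by 1.42 to 6.63. BRD7, a chromatin remodeller subunit, was at 6.90 against 10.22 to 11.76, TENT4B, an RNA polymerase that tails RNAs, at 6.84 against 9.77 to 10.78, and CHD9, a chromatin remodeller, at 4.55 against 6.93 to 8.17. RBL2 is less firm than HEATR3, since its 2 other measured probe sets gave 0.74 and 2.80. From AKTIP to HEATR3, 11 of 11 consecutive measured genes were lowest in CL-1, 6 of them by at least log2 2, with a median difference of -2.34 from the others' median. TOX3, NOD2, SNX20 and NKD1 among them were lowest by only 0.14 to 0.53, with CL-1 at 6.35 to 6.71, under the highest non-dog control. CL-1 also had the lowest array median, so these small margins are not read as a loss. The ends of this run, AKTIP and HEATR3, were set after the values were seen, so its count is a description. FTO (8.37), next to AKTIP, was within the range of the other lines (7.86 to 8.68). On the far side N4BP1 (7.93 against at least 8.55), PHKB and ITFG1 were lowest in CL-1 by 0.21 to 0.78, and NETO2, the next gene, was the one with a gap of 4.36 above. MT2A and MT1E, zinc-binding metallothioneins, lay further off at 4.79 against 10.49 to 12.08 and 4.82 against 7.08 to 10.19. Among the genes between them and FTO, OGFOD1 lay 1.04 under the others' median (-1.04) and MMP2 was within their range (7.26 against 6.90 to 7.51). Of 17 measured metal-handling genes the 2 metallothioneins stood below and SLC39A14, a zinc and iron importer, above (9.71 against 6.64 to 6.97). The 2 other measured probe sets of SLC39A14 disagreed, with gaps of -0.2 and 1.91. Over all measured genes 1.34% stood above and 0.532% below. DNA copy number was not analysed here, so its part in these stretches was not tested.

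A shorter stretch on chromosome 26 was low in CL-1 and partly in CLL-1390. SGMS1, a sphingomyelin synthase, stood at 3.74 in CL-1 and 3.89 in CLL-1390, against 9.37, 11.06 and 8.56 in 17-71, GL-1 and CLGL-90. MINPP1 (4.22 and 4.79, against 8.35 to 9.34) and ATAD1 (5.07 and 4.80, against 8.78 to 9.71) shared that pattern. STAMBPL1, a deubiquitinase, differed, since it was low in CL-1 alone: 4.74 against 10.74, 9.23, 9.35 and 8.15, a gap of 3.41 that was 1.39 from the highest non-dog control. FAS, the death receptor, was at 4.71 in CL-1, 4.72 in CLGL-90 and 5.20 in CLL-1390, against 9.50 in 17-71 and 7.57 in GL-1. From SGMS1 to FAS all 7 measured genes lay under the others' median in CL-1, by a median of 4.02 (-4.02), and 5 were lowest in CL-1. Of these 5, SGMS1, MINPP1, ACTA2 and FAS were lowest by only 0.01 to 0.57, next to another line at background. ACTA2 was at background in every line but 17-71 (9.25). STAMBPL1 alone was lowest by a wide margin. The ends of this stretch, too, were set after the values were seen.

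**Figure D4:**
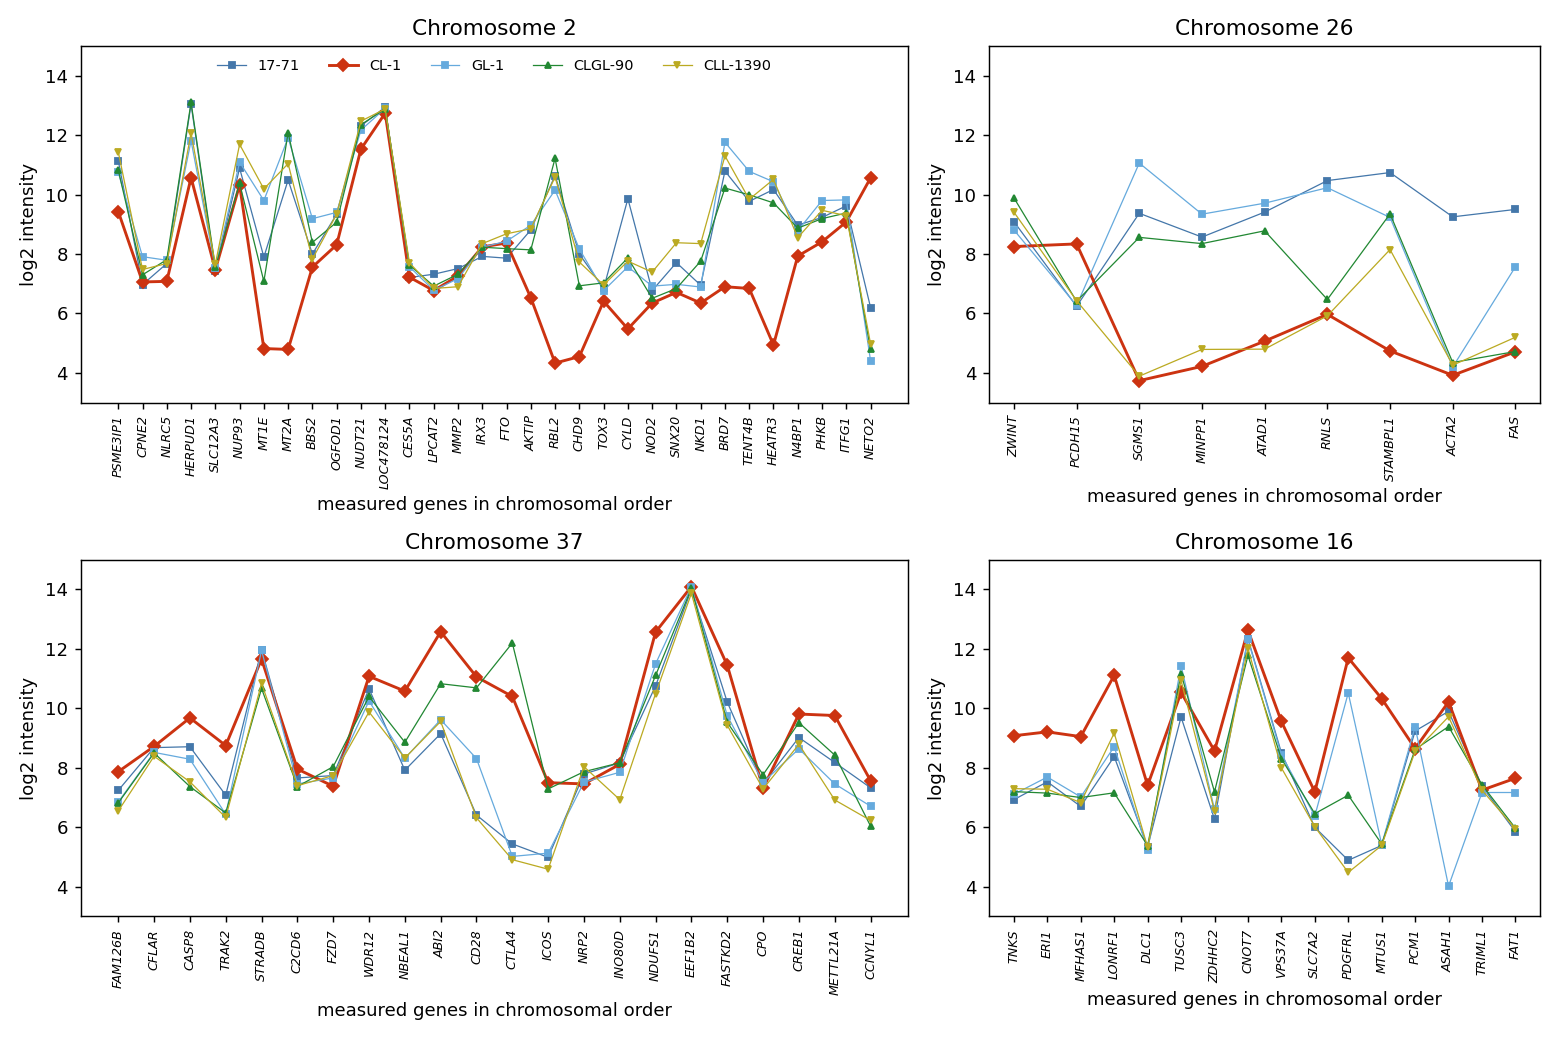
Measured genes are set out in chromosomal order, at even spacing, for stretches of chromosomes 2, 26, 37 and 16, and each line joins the log2 intensities of 1 cell line. CL-1 (thick red) lies under all others from AKTIP to HEATR3 on chromosome 2, by little at TOX3, NOD2, SNX20 and NKD1. It runs with CLL-1390 at the low end from SGMS1 to RNLS on chromosome 26. It lies above at most genes of the chromosome 37 and 16 stretches. The ends of the stretches were set after the values were seen.

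The high genes had neighbours too, at smaller differences. On chromosome 37, CD28, CTLA4 and ICOS follow one another after ABI2, an adaptor of the WAVE complex, which was at 12.58 in CL-1 against 10.83 in CLGL-90 and 9.15 to 9.62 in the rest. The 4 genes lay above the others' median by a median of 3.35, and 3 of them were highest in CL-1. Over the 22 measured genes from FAM126B to CCNYL1, 15 were highest in CL-1 and the median difference was 1.07. Examples with no immune role were NDUFS1, a respiratory chain subunit (12.57 against 10.50 to 11.50), and METTL21A (9.76 against 6.92 to 8.43). On chromosome 16, 11 of 12 genes from TNKS to MTUS1 were highest in CL-1, 3 of them by at least log2 2 (MFHAS1, DLC1 and MTUS1), with a median of 1.96. The DLC1 gap of 2.03 was 0.65 from the highest non-dog control. MTUS1, a microtubule-associated protein, was at 10.33 against 5.39 to 5.44, and TNKS, tankyrase, at 9.08 against 6.93 to 7.30. PCM1, the next gene, was not apart (8.65 against 8.55 to 9.38). The ends of these stretches were set after the values were seen, so their counts are a description. No share of genes highest in CL-1 over all measured genes was worked out to set beside them. Among windows of 25 neighbouring genes, the highest count above, 4, was on chromosome 36 (OSBPL6, SESTD1, PDE1A and NCKAP1).

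Whole chromosomes also differed more in CL-1. The median over a chromosome's measured genes of the difference from the others' median lay beyond 0.3 in either direction on 7 of 39 chromosomes in CL-1, and on 2, 1, 0 and 2 in 17-71, GL-1, CLGL-90 and CLL-1390. Chromosome 32 was highest, at 0.69 over 99 genes with 67.7% of them above the others' median, then chromosome 37 at 0.53 over 114 genes, and chromosomes 13 and 33 at 0.36 and chromosome 29 at 0.35. Chromosomes 19 (-0.37 over 85 genes) and 14 (-0.30 over 158 genes) were lowest. With values raised to the highest non-dog control, chromosome 32 gave 0.60 and chromosome 37 gave 0.52, while chromosomes 19 and 14 gave -0.26 and -0.21. On chromosome 32 the other lines read -0.44 (CLL-1390), -0.10 (17-71), 0.12 (GL-1) and -0.10 (CLGL-90); each line is compared with the median of the other 4, so these values are not independent.

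**Figure D5:**
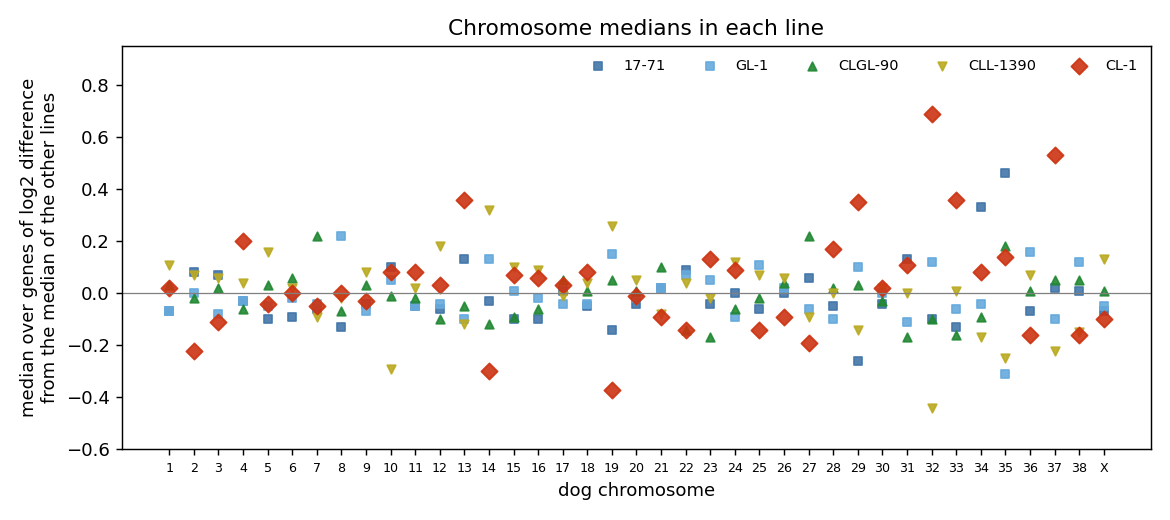
For each dog chromosome and line, a point gives the median over measured genes of the log2 difference between that line and the median of its 4 comparison lines. CL-1 (red diamonds) runs from -0.37 on chromosome 19 to 0.69 on chromosome 32, the widest range of the 5 lines.

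Cell cycle and survival genes stood apart singly. CCNE1, cyclin E1, stood at 10.74 in CL-1 against 7.76 to 8.74, at the edge of the threshold, and CDKN1A, the inhibitor p21, at 12.32 against 8.07 to 11.05. In the list of cell cycle brakes and tumour suppressors 2 of 39 measured genes stood apart, RBL2 below and CCNE1 above. CCNE1 is on that list but drives the cycle and is not a brake. Of the 39 genes, 26 lay above the others' median (median 0.37). Of 44 measured mitosis and replication genes 0 stood apart in either direction and the median was 0.22. XIAP, an inhibitor of caspases, was at 8.81 against 5.33 to 6.62, the only 1 of 38 measured apoptosis regulators to stand apart. Over all measured genes 1.34% stood above and 0.532% below. Such small counts are not read as a trait of these lists.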

How the data were processed

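The authors deposited 1 log2 intensity for each probe set and line, made with GCRMA (background correction, normalization between arrays and probe summary), per the submitters' processing notes; the GCRMA version is not given in the sources used here. Of 43035 probe sets, the 111 with Affymetrix control names were set aside, and 59 of these, for foreign transcripts, served as a guide to background. GEO's platform annotation gave 29254 probe sets 1 gene symbol, 439 several and 13231 no entry; 27680 (94.6%) of the first were found by gene ID in the RefSeq table.

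The probe set of highest mean stood for each gene, which was kept at log2 7 on at least 1 array. Gaps, list medians and windows of 25 neighbouring measured genes were computed in Python 3.11.15 with pandas 2.3.3, and checked on simulated data. The text names the 25 largest gaps above and 20 below, up to 5 members of each of 31 lists by difference from the others' median, marker genes, and up to 10 genes shared with 1 line per direction. Members and lists were chosen with earlier results of these data known. Alternatives were other filters, floors, probe-set summaries, scalings and gap sizes, and leaving out each other line. No sequences were printed, since no sequence table was used.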

Additional observations from a re-analysis of the deposited data

How the results depend on the processing

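The count of CL-1 genes above every other line (141) was 126 to 176 under other filters, probe-set summaries and scalings and 112 with values raised to the highest non-dog control; it moved to 498 and 61 at gaps of log2 1 and 3, and to 348 against the others' median. The count below (56) was 43 to 61 under the same changes of filter, summary and scaling, 36 with the raised floor, 138 and 26 at gaps of log2 1 and 3, and 231 against the others' median. Without each other line in turn the counts ran from 162 to 192 above and from 68 to 96 below. Probe sets below (126) moved to 78 with the raised floor. The share of genes whose other measured probe sets agreed (84.0%) became 96.0% for any gap above 0. It became 97.0% with at least 1 other measured probe set, which was chosen after seeing the data. All these shares leave out probe sets that were dim on every array. The mean correlation of CL-1 became 0.81 as a Spearman correlation, 0.903 over all genes, 0.181 over the 1000 genes of highest variance and 0.851 with the raised floor, and CL-1 was lowest of the 5 lines each time. Medians were under 0 in 24 of 31 lists, and in 21 to 23 under the alternatives; those of the BMP list (0.02 by the most variable probe set) and of ribosomal proteins (0.04 after centring arrays) changed sign. Of the 45 genes named for the largest gaps, 4 fell under log2 2 with the raised floor (WNT5B, ECRG4, DUSP6 and STAMBPL1) and 2 with probe sets averaged (EPB41L4B and ITGB2). Over the 31 lists, counting a gene once per list, the raised floor left 26 of 33 members apart above and 9 of 15 below, and it left 5 of the 8 neighbours below on chromosome 2, both added after seeing the data. Windows of 15 and 40 genes, added after seeing the data, held 6 and 8 genes below on chromosome 2. No paired analysis was possible because each line is 1 array. A low signal limits every gap that starts at background, and 1 array per line leaves culture and array effects unmeasured.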

Other observations

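Genes of the leukocyte cytoskeleton and of signalling often come as a pair, 1 form found mainly in blood cells and 1 in most other tissues. In 11 such pairs, put together after seeing that ARHGDIB and GMFG were low, the blood-cell form lay under the others' median in CL-1 in 9 and the wider form above it in 9. The pairs were chosen for this pattern, so the counts are a description. They take in PI3K catalytic subunits and SHP phosphatases, which are signalling enzymes. Some differences were small, such as PTPN6 (-0.01) and RAC2 (-0.24) among the blood-cell forms and CORO1C (0.15) among the wider ones. Over all measured genes 5217 of 10533 lay above the others' median. NCKAP1, the wider form of a WAVE complex subunit, stood at 7.99 in CL-1 against 3.36 to 4.25 in the other lines (1.23 above the highest non-dog control), while NCKAP1L, its blood-cell relative, was at 9.24 against 9.64 to 10.39. FERMT2, the kindlin of connective tissue, was at 9.22 against 4.86 to 6.29, but the blood-cell kindlin FERMT3 was also highest in CL-1 (11.62 against 10.19 to 11.30). PLS1, an epithelial plastin, was at 9.75 against 6.86 to 7.80, with the blood-cell plastin LCP1 at 13.09 against 13.43 to 13.76. ARHGDIA (9.72 against 8.82 to 9.48) and GMFB (9.67 against 8.03 to 9.33), the wider forms beside ARHGDIB and GMFG, were highest in CL-1 by less than log2 1. DOCK2, an exchange factor for RAC proteins in lymphocytes, was lowest in CL-1 (5.68 against 7.22 to 8.59). WASL ran the other way, being lowest in CL-1 at 7.48 against 8.45 to 11.02. Of the 22 genes, 2 blood-cell forms (ARHGDIB and GMFG) and 2 wider forms (NCKAP1 and FERMT2) stood at least log2 2 from every other line. ARHGDIB and GMFG were the genes the pairs started from, and NCKAP1 fell under the threshold from the highest non-dog control. Over all measured genes 1.34% stood above and 0.532% below.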
